A study of Drosophila melanogaster with 4 samples.

Results

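RPD3 clusters next to the centromeres are stretches of enriched chromatin, a few kilobases wide, in the 2 Mb of chromosome arms X, 2L, 3L and 3R that adjoin the centromere. They were taken from the authors' combined list of regions called enriched for the histone deacetylase RPD3. A cluster was included if it was narrower than 10000 bp and its midpoint fell at or below 2000000 on 3R, or above 20422827 on X, 21011544 on 2L or 22543557 on 3L, in FlyBase release 5. The rule found 281 of the 7145 clusters of that list, 133 on 3R, 59 on 2L, 56 on X and 33 on 3L. The clusters were thus selected on measured values, their position and width in the combined list, and their counts there are a description with no test. The same stretches held 207 clusters under 10000 bp in the list of ChIP replicate 1 and 198 in that of ChIP replicate 2.

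The chromatin came from nuclei of Drosophila melanogaster larvae at the third instar, of wild-type genotype, strain Oregon-R, whose official name is Oregon-R-modENCODE. It was immunoprecipitated with the antibody RPD3-Q3451 and sequenced in 2 ChIP samples, each called against an Input of the same larval stage and strain (n = 2). No treatment, mutation or tissue is named in the labels, and cell types that differ in RPD3 cannot be told apart in these samples. Separate collections of larvae are not stated for the replicates, and their spread may be technical.

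RPD3 is the fly counterpart of the mammalian deacetylases HDAC1 and HDAC2. It removes acetyl groups from histone tails as the catalytic subunit of the Sin3, NuRD and CoREST corepressor complexes. Chromatin around fly centromeres is largely heterochromatin, rich in transposons and satellite repeats, low in histone acetylation, and marked by methylated lysine 9 of histone H3 and the protein HP1. Active genes lie within it and at its border with euchromatin, and mutations in RPD3 are known to modify position effect variegation, the patchy silencing of genes placed near heterochromatin. The arms of release 5 stop inside this region and do not reach the centromere itself, so distances below run from the centromere end of the assembled arm.

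Cluster density split the 4 stretches. The centromere-side stretches of X, 2L and 3L held fewer RPD3 clusters per Mb than the remainder of their arms, and that of 3R held more. On 3L there were 9 clusters per Mb in the stretch in both replicates, against 43.9 in replicate 1 and 39.7 in replicate 2 on the rest of the arm. X had 19.5 per Mb in the stretch in both replicates, against 47.5 and 42.9 on its rest. On 2L the stretch had 21.5 and 18.5 per Mb, against 41.6 and 38.0. The stretch of 3R held 53.5 and 52 per Mb, against 43.5 and 39.5 on the rest of 3R.

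The ratio of the stretch to the rest of its arm averaged 0.216 ± 0.0156 on 3L, 0.432 ± 0.0315 on X, 0.501 ± 0.0211 on 2L and 1.27 ± 0.0599 on 3R (SD, n = 2). The ratios thus lay further from 1 on all 4 arms than the replicates lay from each other. The order of the arms was the same in both replicates, although X and 2L stood close together, at 0.410 and 0.516 in replicate 1 and 0.455 and 0.487 in replicate 2. No test between stretches was made, because with 2 lists no exact permutation test can pass 0.05 (the smallest two-sided p of 2 against 2 is 0.333). The lists do not tell on how much of each stretch reads could be placed, and whether that moved with the counts was not tested. A missing cluster therefore does not show that RPD3 was absent.

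The share of sequence under clusters gave the same split. Clusters covered 2.81% and 2.55% of the 3L stretch in replicates 1 and 2, against 14.1% and 12.1% of the rest of 3L. They covered 5.78% and 5.68% of the X stretch against 15.3% and 13.3%, and 6.11% and 5.49% of the 2L stretch against 13.4% and 11.7%. On 3R the stretch was 17.4% and 15.9% covered, against 14.4% and 12.6% of the rest.

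Set beside every other whole window of 2 Mb on the same arm, counted from the centromere end, the stretches of X, 2L and 3L had the fewest clusters and that of 3R was among the fullest. The X stretch held 39 clusters in each replicate, fewer than any of the 10 other windows, which held 68 to 136 in replicate 1 and 65 to 130 in replicate 2. The 2L stretch held 43 and 37, and its 10 other windows 59 to 124 and 51 to 104. With 18 clusters in each replicate, the 3L stretch lay below all of its 11 other windows, which held 51 to 107 and 45 to 100. The 3R stretch, with 107 and 104, held more than 10 of 12 other windows in replicate 1 and more than 11 of 12 in replicate 2. Windows of one arm share a library and their number is small, so these ranks are a description.

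**Figure D1:**
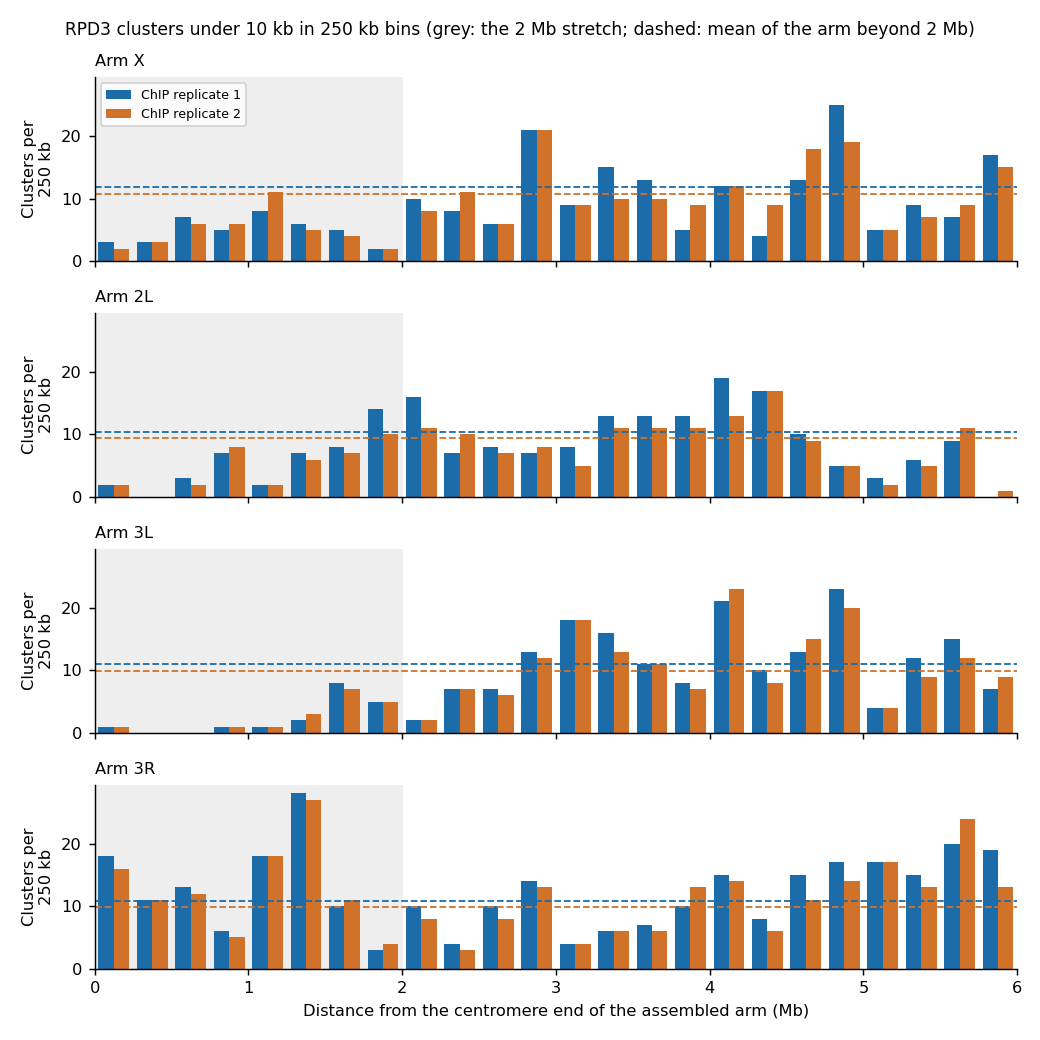
Number of RPD3 clusters under 10 kb (vertical axis) in each 250 kb bin by distance from the centromere end of the assembled arm (horizontal axis, Mb, out to 6 Mb), for ChIP replicate 1 (blue) and replicate 2 (orange). Grey marks the 2 Mb stretch and dashed lines the mean of the arm beyond it; the bars lie below those lines over most of the stretch on X, 2L and 3L, and reach 28 and 27 between 1250 and 1500 kb on 3R.

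Within the stretches, clusters thinned out towards the centromere end on 3L and 2L. Of the 18 clusters of each replicate on 3L, 2 lay in the innermost Mb and 16 in the next. On 2L the innermost Mb held 12 clusters in each replicate, and the next held 31 in replicate 1 and 25 in replicate 2. On X the 2 Mb were nearly even, with 18 and 17 clusters in the innermost Mb and 21 and 22 in the next. On 3R they held 48 and 44 in the innermost Mb and 59 and 60 in the next. Beyond the 2 Mb limit, the following Mb held 45 and 46 clusters on X and 38 and 36 on 2L. It held 29 and 27 on 3L, and 38 and 32 on 3R. Density thus went up past the limit on X, 2L and 3L and went down on 3R.

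The emptiest part lay on 3L. A single gap of 0.820 Mb separated neighbouring clusters of each replicate, from 23708860 to 24528912 in replicate 1 and from 23708961 to 24528580 in replicate 2. The combined list held 4 clusters inside this gap, of 1019 to 1643 bp, and neither replicate overlapped any of them. On 2L both replicates left 0.343 Mb empty, from 22473817 to 22817226 in replicate 1. On X the longest gap was 0.342 Mb in replicate 1 and 0.465 Mb in replicate 2, at different places. On 3R it was 0.160 Mb in replicate 1 and 0.161 Mb in replicate 2. On the rest of the 4 arms the longest gaps were 0.329 to 0.410 Mb, shorter than the 3L gap of both replicates and the X gap of replicate 2.

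RPD3 was nevertheless called close to the end of every assembled arm, in both replicates. The cluster nearest the centromere end of 3R ran from base 5 to 2156 in the combined list. It scored 0.645 in replicate 1 and 0.669 in replicate 2. The score is the authors' own value for a cluster, on a scale that is not given in the sources used here. On X the cluster at 22413781 to 22416699, with its midpoint 7.59 kb from the end, scored 1.54 and 1.39. That was well above the medians of the replicate lists, 0.804 and 0.844. A second X cluster, at 22408440 to 22410561, scored 0.652 and 0.802, and no other cluster lay within the last 100 kb of X. On 3L the cluster at 24528228 to 24531095, 13.9 kb from the end, scored 0.586 and 0.523. The one on 2L at 22959148 to 22962151, 50.9 kb from the end, scored 0.790 and 0.587.

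**Figure D2:**
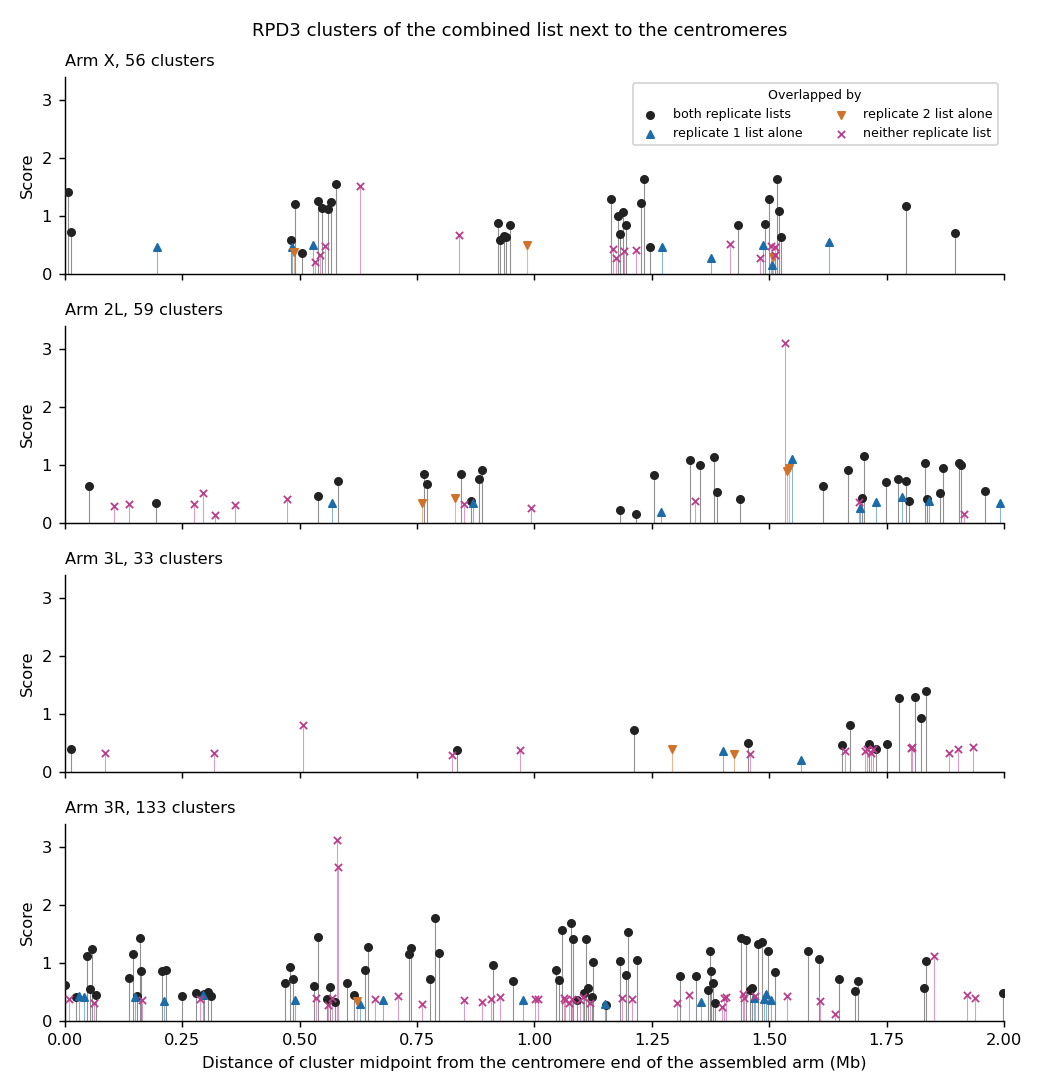
Each of the 281 combined clusters next to the centromeres, placed by the distance of its midpoint from the centromere end of the arm (horizontal axis, Mb) and by its score in the combined list (vertical axis, the authors' units), in 1 panel per arm. Symbols show which replicate lists overlap it. Most clusters above a score of 1 are in both replicates (51 of 57), while 3 narrow ones on 2L and 3R with scores of 2.65 to 3.12 are in neither. Over all combined clusters under 10 kb the median score was also higher for those in both replicates (0.835) than in neither (0.380).

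The stretches differed in how many of their 100 kb bins held a cluster, and no comparison with an even scatter was made. The 56 clusters on X fell into 15 of 20 bins of 100 kb, and 4 of these bins held 57.1% of them. On 3L 12 of 20 bins were occupied and 4 held 63.6%, while on 2L 18 were occupied and 4 held 40.7%, and on 3R 19 were occupied and 4 held 39.1%. In the replicate lists 4 bins held 53.8% and 59.0% of the clusters on X. Neighbours under 2000 bp apart made up 41.1% of the gaps in the X stretch and 39.5% on the rest of X in the combined list. On 2L these shares were 18.6% against 36.6%, on 3L 15.2% against 37.1%, and on 3R 38.1% against 36.3%. In the replicates the share on X was lower, at 17.9% and 21.1% of gaps in the stretch against 33.4% and 29.3% on the rest. The closeness of neighbours on X thus depended on the list. On 3R the replicate shares were 39.1% and 36.2% in the stretch against 31.4% and 27.0% on the rest. On 2L and 3L the stretch lay below the rest in both replicates.

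Runs of at least 5 clusters with gaps under 5000 bp, a limit chosen after the positions were seen and counting broad clusters too, were counted next. In the combined list 4 runs held 34 of the 57 clusters of the X stretch, and 8 runs held 68 of 140 on 3R, shares of 59.6% and 48.6%. Runs were not counted on the rest of the arms, so these shares do not mark a trait of the stretches. The median gap in the combined list was 3446 bp in the X stretch against 3244 bp on the rest of X. On 3R it was 3174 bp against 3669 bp. In the replicate lists the shares were smaller, 25% and 30.8% on X and 35.1% and 32.1% on 3R, and X was no longer ahead of 3R. In the combined list 2L and 3L had 1 run each, of 6 clusters. The longest run anywhere in the stretches, 25 clusters over 146 kb, lay at 1366498 to 1512892 of 3R and was 75.3% covered. Both replicates overlapped 15 of the 25, and neither overlapped 6. On X the runs at 20896930 to 20936909, with 11 clusters, and at 21206567 to 21262011, with 10, covered 69.6% and 81.3% of their spans. Of the 14 combined runs, 4 met a run of at least 5 clusters in both replicate lists and 7 met none in either. The run of 25 appeared in pieces, 3 in replicate 1 and 2 in replicate 2. The X run at 20896930 to 20936909 met no such run in either replicate, while that at 21206567 to 21262011 met 1 in each.

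Among the stretches, median RPD3 scores were highest on X and lowest on 3L, an order that the rest of the arms shared. The scores of the X stretch ran from 0.353 through a median of 1.08 to 1.70 in replicate 1, and from 0.415 through 0.990 to 1.72 in replicate 2. Those of 3L ran from 0.345 through 0.623 to 1.45 in replicate 1 and from 0.426 through 0.641 to 1.75 in replicate 2. On 2L the medians were 0.647 and 0.743, and on 3R 0.765 and 0.803. The order X, 3R, 2L, 3L held in both replicates. On the rest of the arms the medians were 0.910, 0.791, 0.766 and 0.746 in this order in replicate 1, and 1.00, 0.862, 0.818 and 0.800 in replicate 2. The mean medians of 2L and 3L were 0.695 ± 0.0680 and 0.632 ± 0.0128 (SD, n = 2), a difference smaller than the SD on 2L.

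Against the rest of its own arm, the median score was lower next to the centromere in both replicates on 3L, 2L and 3R. The difference was -0.124 and -0.159 on 3L, -0.119 and -0.0747 on 2L, and -0.0254 and -0.0600 on 3R, in replicates 1 and 2. On X it was 0.173 in replicate 1 and -0.00970 in replicate 2, so the replicates disagreed in sign. With only the higher-scoring 50% of each list kept, the mean difference turned positive on 3L (0.00647) and 3R (0.0246). In means these were -0.141 ± 0.0250 on 3L, -0.0969 ± 0.0314 on 2L, -0.0427 ± 0.0245 on 3R and 0.0818 ± 0.129 on X (SD, n = 2). On X the difference was smaller than the spread of the replicates. In the combined list the difference was -0.0382 on 3L, 0.0982 on X, 0.0229 on 2L and 0.0132 on 3R, and so took the opposite sign to the replicates on 2L and 3R. The 3L stretch had a lower median than every other window of 2 Mb on its arm in both replicates, which lay between 0.680 and 0.842 in replicate 1 and between 0.724 and 0.963 in replicate 2. In the X stretch the median was above all 10 other windows of X in replicate 1 but above 6 of 10 in replicate 2.

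**Figure D3:**
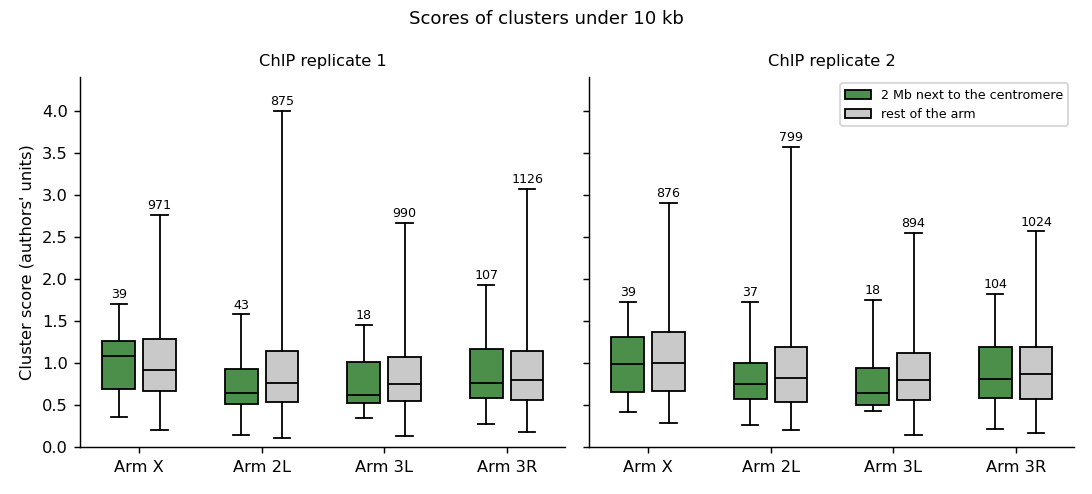
Scores of clusters under 10 kb (vertical axis, the authors' units) in the 2 Mb next to the centromere (green) and on the rest of the arm (grey), for each arm in each ChIP replicate. Boxes span the 25th to 75th percentiles with the median as a line, whiskers reach the lowest and highest cluster, and the number of clusters stands above; no cluster next to a centromere scores above 1.92 in replicate 1 or 1.82 in replicate 2, while the rest of each arm, with many more clusters, reaches at least 2.54.

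The top score in the stretches was 1.92 in replicate 1 and 1.82 in replicate 2, both on 3R. The 90th percentile of the list was 1.45 in replicate 1 and 1.51 in replicate 2. Over all sequences 9.88% of replicate 1 clusters and 10.0% of replicate 2 clusters under 10000 bp did. In the stretches 14 of 207 did in replicate 1, which is 6.76%, and 20 of 198 in replicate 2, which is 10.1% and close to that background. By arm these were 5 and 4 clusters on X (12.8% and 10.3%), against 16.4% and 16.9% on the rest of X. On 2L it was 1 cluster in each replicate, 2.33% and 2.70%, against 9.94% and 9.51%. The 3L stretch had 0 of 18 and 2 of 18 (11.1%), against 7.07% and 7.27%. The 3R stretch had 8 of 107 and 13 of 104 (7.48% and 12.5%), against 9.41% and 9.67%. On 3L and 3R the share was thus lower than on the rest in replicate 1 and higher in replicate 2. In the combined list 28 of the 281 reached the 90th percentile, 9.96%, where 9.63% of all its clusters under 10000 bp did.

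Of the clusters found in both replicates, the 3 with the highest combined scores in each stretch were as follows. On 3R the cluster at 786711 to 789663 scored 1.92 in replicate 1 and 1.65 in replicate 2, ranks 102 of 5496 and 296 of 4991. Its combined score was 1.78, and it was followed by 1075915 to 1078672, with 1.85 and 1.63, and 1056175 to 1061760, with 1.58 and 1.72. The last 2 lay in the denser, outer Mb of the stretch. Within single replicates the order differed: the 3R cluster at 1195811 to 1203710 scored 1.82 in replicate 1 and 1.64 in replicate 2, and that at 1447236 to 1452667 scored 1.46 and 1.82, the top value of the stretches in replicate 2. On X the cluster at 21185879 to 21191765 scored 1.60 and 1.71, that at 20904715 to 20907871 scored 1.70 and 1.72, and that at 21844346 to 21847942 scored 1.52 and 1.70. The 3 lay 1.23, 1.52 and 0.577 Mb from the end of X.

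On 3L the corresponding clusters were at 22707462 to 22712931 (1.45 in replicate 1 and 1.65 in replicate 2), 22730517 to 22736542 (1.33 and 1.75) and 22765273 to 22767995 (1.42 and 1.27). All 3 lay together near the outer edge of the stretch, 1.78 to 1.83 Mb from the end. The second of them had 1.30 in the combined list, yet its 1.75 in replicate 2 exceeded the replicate 2 scores of the 3 clusters chosen by combined score on X and on 3R. On 2L the cluster at 21307852 to 21312708 scored 1.39 and 1.19, that at 21627146 to 21630980 scored 1.15 and 1.31, and that at 21676097 to 21684091 scored 1.31 and 0.982. None of these 3 clusters of 2L reached the 90th percentile of either replicate list.

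Widths next to the centromeres were close to those of the rest of the arms. Median widths in the stretches were 2347 and 2638 bp on X, 2181 and 2430 bp on 2L, 2554 and 2131 bp on 3L, and 2812 and 2573 bp on 3R, in replicates 1 and 2. On the rest of these arms they lay between 2470 and 2713 bp. The difference had the same sign in both replicates only on X, with -224 and -3 bp, and on 2L, with -289 and -117 bp, and the SD between replicates exceeded the mean difference on X, 3L and 3R. The widest were a 3R cluster at 1478896 to 1488471, of 9576 bp, and a 2L cluster at 21136964 to 21145518, of 8555 bp. The 3R cluster overlapped 2 clusters in each replicate, with scores of 1.21 and 1.57 in replicate 1 and 1.21 and 1.66 in replicate 2. The widest on X, 6809 bp at 21236769 to 21243577, scored 0.789 and 0.790. That on 3L, 6779 bp at 22867766 to 22874544, scored 0.849 in replicate 1 and overlapped 2 clusters of replicate 2.

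Both replicate lists overlapped a similar share of the combined clusters on X, 2L and 3R and a smaller share on 3L. Most of the remainder on 3L was in neither list. Replicate 1 alone overlapped 2 of 33 there (6.06%) and replicate 2 alone 2 of 33 (6.06%). Over all combined clusters under 10000 bp these shares were 16.3% and 5.22%. Both replicates overlapped 76 of 133 clusters on 3R (57.1%, Wilson 95% interval 48.6 to 65.2%), 33 of 59 on 2L (55.9%, 43.3 to 67.8%), 31 of 56 on X (55.4%, 42.4 to 67.6%) and 13 of 33 on 3L (39.4%, 24.7 to 56.3%). Among all 6824 combined clusters under 10000 bp the share was 51.6%, and on the rest of the 4 arms it was 50.3 to 54.3%. The intervals, which cover counting error only and treat clusters as independent, all include the overall share. They cannot decide whether 3L differs, since clusters of one list share libraries. Neither replicate overlapped 16 of 33 clusters on 3L (48.5%, 32.5 to 64.8%), 41 of 133 on 3R (30.8%), 14 of 56 on X (25%) and 13 of 59 on 2L (22.0%). Over all combined clusters under 10000 bp this share was 26.9%, below the interval of 3L, to which the same limit applies. Since the authors made the combined list from the same replicates, no test was made.

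Clusters in neither replicate were mostly narrow and low. Over the 4 stretches these 84 had a median width of 1238 bp and a median score of 0.381, against 3111 bp and 0.769 for the 153 in both. The whole combined list under 10000 bp was alike, with 1237 bp and 0.380 in neither and 3555 bp and 0.835 in both. Of the 84, 46 were narrower than 1301 bp, the narrowest width in either replicate list. Among all 1839 such clusters of the combined list the share under that width was 58.0%. Replicate 1 alone overlapped 34 of the 281 (12.1%) and replicate 2 alone 10 (3.56%), where all combined clusters under 10000 bp had 16.3% and 5.22%. On 3R the imbalance was 15 to 1, where the rest of 3R had 236 to 75.

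**Figure D4:**
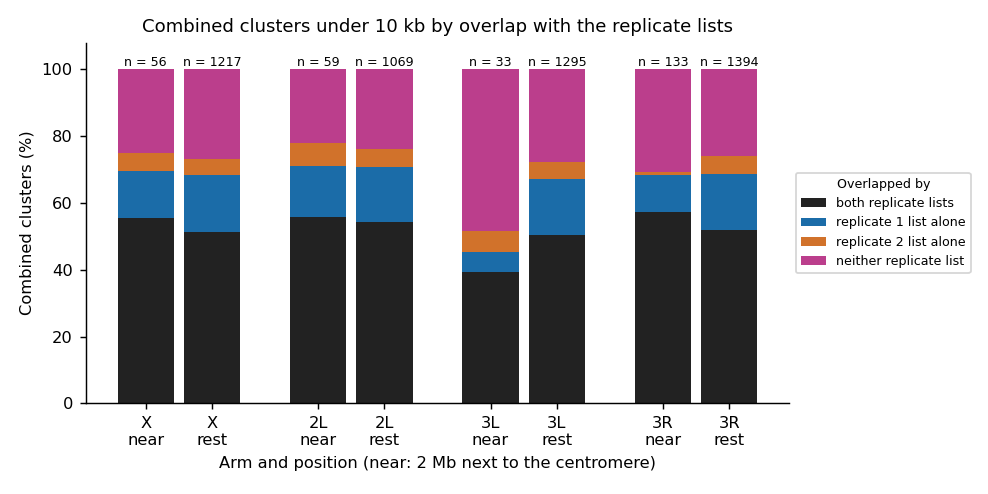
Share of combined clusters under 10 kb (vertical axis, percent) that both replicate lists, 1 of them or neither overlap, for the 2 Mb next to the centromere (near) and the rest of each arm, with the number of clusters above each bar. The black parts, in both replicates, reach 55.4%, 55.9% and 57.1% near the centromere on X, 2L and 3R and 39.4% on 3L.

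Compared directly, most clusters of 1 replicate overlapped a cluster of the other. Of replicate 1 clusters in the stretches, 170 of 207 overlapped replicate 2, which is 82.1% (76.3 to 86.7%), where the whole list under 10000 bp had 76.6%. Of replicate 2 clusters, 184 of 198 overlapped replicate 1, which is 92.9% (88.5 to 95.7%), where the whole list had 91.3%. The 3R stretch had shares of 84.1% and 97.1%, against 75.8% and 91.4% on the rest of 3R, higher in both directions. The directions compare the same pair of lists and are not independent. The 2L stretch had 76.7% and 89.2%, against 77.7% and 92.7%, and the X stretch 79.5% and 87.2%, against 74.5% and 90.9%, so X was higher in 1 direction and lower in the other. On 3L 16 of 18 overlapped in each direction (88.9%), against 76.5% and 91.5%, higher in 1 direction and lower in the other. The bases covered in both lists, divided by those covered in either, came to 75.9% on 3R, 74.2% on 2L, 68.7% on 3L and 67.6% on X. On the rest of these arms the values were between 67.3% and 70.9%.

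Where clusters of the replicates overlapped 1 to 1, their scores ranked alike in every stretch. Across such pairs, which share 2 libraries and are not independent, Spearman's rho was 0.96 on 3L (13 pairs), 0.89 on 2L (33 pairs), 0.87 on 3R (78 pairs) and 0.85 on X (31 pairs). Pearson's r was 0.94, 0.89, 0.88 and 0.84 in the same order. On the rest of the arms rho lay between 0.88 and 0.89. Neither replicate scored higher throughout: replicate 2 was the higher in 7 of 13 pairs on 3L, 17 of 33 on 2L, 41 of 78 on 3R and 14 of 31 on X. The median shift between paired midpoints was 94.5 bp (X), 109 bp (2L), 124 bp (3L) and 169 bp (3R).

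A few pairs stood off the line of equal scores. The X cluster at 20930723 to 20932957 in replicate 1 scored 1.18 there and 0.547 in replicate 2. On 3R the cluster at 1995575 to 1997644 scored 0.830 in replicate 1 and 0.213 in replicate 2, where it was among the lowest of the list (rank 4983 of 4991). The largest shifts the other way were on 3R at 56593 to 61366, with 1.16 in replicate 1 and 1.60 in replicate 2, and on 3L at 22730493 to 22736416, with 1.33 and 1.75.

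**Figure D5:**
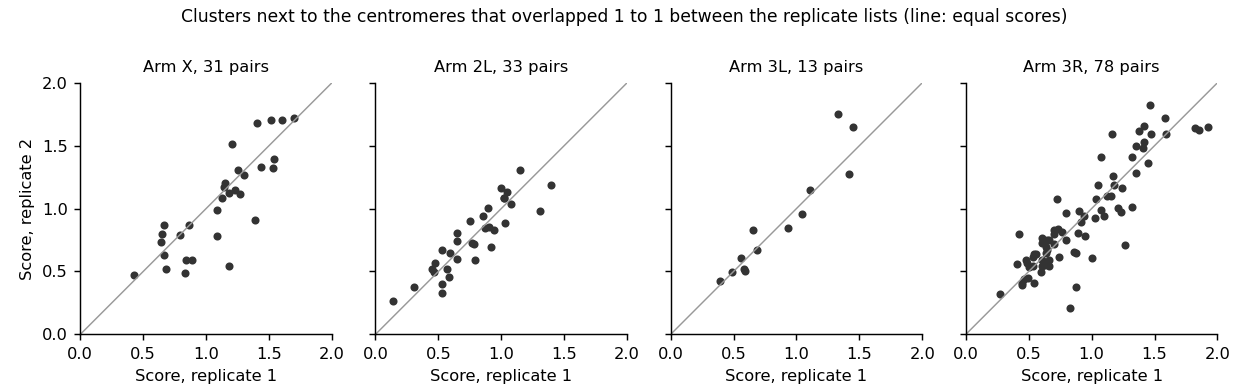
Score in ChIP replicate 2 (vertical axis) against score in ChIP replicate 1 (horizontal axis), both in the authors' units, for clusters next to the centromeres that overlapped 1 to 1, in 1 panel per arm. Points follow the grey line of equal scores on all 4 arms, with the lowest rank correlation on X (0.85, 31 pairs) and the highest on 3L (0.96, 13 pairs).

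Clusters that the other replicate lacked were mostly lower in score than those it shared. In replicate 1 their medians were 0.662 on X, 0.545 on 3R, 0.500 on 2L and 0.409 on 3L, against 1.15, 0.884, 0.784 and 0.672 for the shared ones. In replicate 2 the same held on X, 3R and 3L, while on 2L the 4 unshared clusters had a median of 0.891, against 0.743 for the 33 shared. The highest of these on 3L scored 0.472 in replicate 1 (23142341 to 23143796) and 0.553 in replicate 2 (23250893 to 23252770). On X the highest were at 21151092 to 21153438 in replicate 1, with 0.912, and at 21437815 to 21439837 in replicate 2, with 0.678. On 3R they were at 50172 to 52658 in replicate 1, with 0.775, and at 621806 to 623363 in replicate 2, with 0.570. On 2L replicate 1 alone had a cluster of 1.58 at 21463512 to 21465136, and replicate 2 alone one of 1.73 at 21473587 to 21475113. Each was the highest score of the 2L stretch in its own list.

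Both of these 2L clusters belonged to a group of 4 combined clusters in 16.1 kb, none of which overlapped both replicates. The group was singled out after its values were seen. In the combined list the clusters lay at 21463381 to 21465137, in replicate 1 alone, at 21468436 to 21470430 and 21473584 to 21475132, in replicate 2 alone, and at 21478509 to 21479509, in neither. Their scores were 1.10, 0.945, 0.902 and 3.12, and 6 combined clusters shared the second of these exactly. Their midpoints followed each other at steps of 5174, 4925 and 4651 bp. As background, the tandemly repeated histone genes of this species lie near the base of arm 2L. Their position in release 5 was not used here, and the clusters were not assigned to them. Whether reads from repeated sequence bear on these scores was not tested.

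High scores without a cluster in either replicate occurred at a few more narrow clusters. On 3R the clusters at 579098 to 580098 and 582274 to 583281, of 1001 and 1008 bp, scored 3.12 and 2.65 in the combined list. The first had exactly the score of the 2L cluster at 21478509, to 10 decimals, and 4 combined clusters shared it. On X the highest in neither replicate was at 21792898 to 21793920, with 1.53, a score that 4 combined clusters shared. On 3L it was at 24036611 to 24037731, with 0.801. These clusters were 1001 to 1121 bp wide, under the narrowest width in the replicate lists. Clusters narrower than that could still overlap a replicate, as 4 in the stretches did in replicate 1 alone and 2 in replicate 2 alone. The highest combined scores of the 2L and 3R stretches had no replicate value behind them.

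Across the 2 Mb limit the scores of neighbouring clusters went up on X and 2L and down on 3L and 3R. The last cluster inside and the first outside lay 1895 and 2028 kb from the end on X. These distances were 1992 and 2075 kb on 2L, 1934 and 2080 kb on 3L, and 1997 and 2025 kb on 3R. Just inside the 2 Mb limit the outermost combined clusters scored 0.711 on X, 0.347 on 2L, 0.437 on 3L and 0.480 on 3R. Just outside it the next ones scored 1.38, 0.408, 0.284 and 0.257 on the same arms. The width limit left out 10 broader clusters in the stretches, 7 on 3R and 1 on each of X, 2L and 3L, of 10647 to 23965 bp. Their scores were 0.878 to 1.25, and both replicates overlapped all 10. The broadest, at 1410779 to 1434743 of 3R, overlapped 4 clusters in each replicate and lay within the run of 25. The narrowest of the 10, also on 3R at 1387441 to 1398087, scored 1.24, and the widest cluster kept by the rule, 9576 bp, scored 1.37 in the combined list.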

How the data were processed

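The data were 3 lists of clusters, called enriched for RPD3, from ChIP replicate 1, ChIP replicate 2 and the authors' combined replicate set. The submitters' processing notes name Bowtie 0.12.7 as a tool, and coordinates are 1-based on FlyBase release 5, per the file headers. The deposited score is 1 value per cluster, made by the authors. The sources used here do not state its scale, the cluster caller, the thresholds or the way replicates were joined. No cluster list of an Input was analysed here. No counts are given, so depth is unknown. The combined list also holds 1 depleted region, which was left out.

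Clusters of every list were assigned to the 2 Mb stretch or the rest of the arm by midpoint, below 10000 bp in width, with Python 3.11.15, pandas 2.3.3 and SciPy 1.17.1. Overlap meant at least 1 bp with a cluster of any width. Shares carry Wilson 95% intervals. The overlap code was tested on simulated data, where 20 of 20 list pairs equalled a count base by base. Named clusters are, per stretch, the 3 highest-scoring in both replicates, the widest, the one nearest the end in both, the highest in neither, the highest that 1 replicate lacks, and those at the limits of the rule. Members, lists and tests were chosen with earlier results of these data known. No genome of release 5 was at hand, so sequences and genes at these positions are not reported, and the gene table of release 6 was not set against the clusters. Alternatives were a 1 Mb stretch, no width limit, the higher-scoring 50% of each list, covered sequence in place of number, merging of clusters closer than 200 bp, an overlap of 50% of the shorter cluster, a minimum combined width of 1301 bp, and each replicate alone.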

Additional observations from a re-analysis of the deposited data

Results flagged for a closer look

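The density of RPD3 clusters next to the centromere, relative to the rest of the arm, was above 1 in both replicates on 3R and below 1 in both on X, 2L and 3L. The mean ratio on 3R exceeded that on 3L by 1.06, that on X by 0.841 and that on 2L by 0.772. Set against the remainder of the arm, the replicates overlapped each other more in the 3R stretch, in both directions (8.27 and 5.71 percentage points), and less in the 2L stretch (-0.970 and -3.55 points), a difference of 9.25 points between the 2 arms. These differences were not tested, since each rests on 2 replicates, and the 2 directions of overlap compare the same pair of lists. The Wilson intervals of the 2L stretch, 62.3 to 86.8% and 75.3 to 95.7%, include the shares of the rest of 2L, 77.7% and 92.7%. Those of the 3R stretch, 76.0 to 89.8% and 91.9 to 99.0%, lie just above the shares of the rest of 3R, 75.8% and 91.4%. The intervals cover counting error only and treat clusters as independent. The 2 arms were picked because they stood apart, so the intervals do not serve as a test.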

How the results depend on the processing

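The direction of the density ratio held under all 7 alternative values on each arm, below 1 in 21 of 21 on X, 2L and 3L and above 1 in 7 of 7 on 3R. These 7 include the value of each replicate alone. Of 120 alternative values over all results, 91 stayed within the replicate spread or counting interval. Among the 91 are 16 values of each replicate alone, which could not leave that spread. A single replicate always lies within 1 SD of the mean of both. In 1 Mb stretches the density ratios were 0.397 on X, 0.306 on 2L, 0.0493 on 3L and 1.09 on 3R. There the score differences were -0.131 on X, -0.291 on 3L and -0.0834 on 3R, the width differences -416.5 bp on X and -709.8 bp on 3L, and on 2L 236.5 bp, the opposite sign to the full stretch. The overlap between replicates on 3L was 100%, from few clusters. With only the higher-scoring 50% of clusters kept, the density ratios were 0.408 on 2L, 0.183 on 3L and 1.17 on 3R. In both replicates were then 41.4% of 2L and 62.5% of 3L combined clusters, the latter from few clusters. The share over all combined clusters was not computed for this setting. The score difference was -0.130 on 2L and turned positive on 3L (0.00647) and 3R (0.0246). The width differences were -427 bp on 2L, 361 bp on 3L and -227 bp on 3R, and the overlap on 3L was 100%. By covered sequence the 2L ratio was 0.461, and with merged clusters 0.526. With an overlap of 50% of the shorter cluster the share on 3L was 86.1%. Among combined clusters of at least 1301 bp, 68.9% on X, 63.5% on 2L, 56.5% on 3L and 69.7% on 3R were in both replicates. Fewer clusters enter each share, and the share over all combined clusters of that width was not computed. In the whole list under 10000 bp, 1067 of 1839 clusters in neither replicate were narrower than 1301 bp. Of the 3519 in both, 1 was. The width minimum thus raises the share over the whole list as well. For these shifts, the cause was not tested. No paired analysis was possible because clusters are listed for ChIP samples only, each already called against its Input. Read depth is unknown, so a missing cluster does not show that RPD3 was absent.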

Other observations

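Wider clusters had higher scores next to the centromeres, with Spearman's rho of 0.67 across the 207 clusters of replicate 1 and 0.73 across the 198 of replicate 2. By arm rho was between 0.65 and 0.75 in replicate 1 and between 0.46, on 2L, and 0.81, on X, in replicate 2. Scores went up with distance from the centromere end on 3L, with rho of 0.62 and 0.58 across 18 clusters in each replicate. Of these 18, 16 lay in the outer Mb, so the inner Mb hardly entered. On X rho was 0.03 and 0.08 across 39 clusters. It was 0.10 and 0.28 on 2L, and 0.21 and 0.08 on 3R, in replicates 1 and 2. Clusters of one list share a library, so these values are a description.

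Exactly equal scores were found for 47 of the 281 combined clusters (16.7%), each shared with at least 1 other combined cluster, where 16.1% of the whole list had such a score. They were more frequent among the 84 clusters in neither replicate, at 29, than among the 153 in both, at 8. The same held over all combined clusters under 10000 bp, with 700 of 1839 in neither and 158 of 3519 in both. In the replicate lists 27 of 207 and 25 of 198 had a score that another cluster of the list shared. In the whole lists 14.5% of replicate 1 clusters and 13.2% of replicate 2 clusters had one.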
